A study of Mus musculus with 4 samples.

Results

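The organic ion and ABC transporters of the liver were described as 64 protein-coding genes among 27179 genes counted, namely 14 Slco, 24 Slc22a, 10 Abcb, 10 Abcc and 6 Abcg genes, chosen by symbol and without Slc22a18. The tested libraries were 2 from livers labelled fasted, taken from male wild-type C57BL/6 mice that had gone without food overnight but with water, and the comparison libraries were 2 labelled non-fasted, from mice of the same description with free access to food. The groups follow the sample titles, whereas the treatment field reads fasted for all 4 libraries. The labels do not tie libraries to separate mice, and p-values here therefore reflect the spread from library to library. That spread was small and may be largely or wholly technical. Beyond counting error, the common coefficient of variation between libraries came out at 0.0099. This is the lowest value that the estimation could return, so it does not measure that spread.

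Hepatocytes take up bile acids, drugs and other organic ions from the blood across their sinusoidal membrane and pass them, often after conjugation, into bile or back to blood. Slco genes encode organic anion transporting polypeptides, and Slc22a genes encode transporters of organic cations, organic anions and carnitine, so that both families were counted here as uptake. Abcb, Abcc and Abcg genes encode ATP-driven pumps, which at the canalicular membrane secrete bile salts, phospholipid, conjugates and sterols. Some Abcb proteins sit in mitochondria or lysosomes instead, and Abcc8 and Abcc9 are regulatory subunits of potassium channels.

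The libraries labelled non-fasted went against their tissue label. Summed over 19 markers of trophoblast, the epithelium of the placenta, the fasted libraries had 6 and 7 counts against 2431619 and 2450070 in the non-fasted ones, with libraries of 13528015 to 36975921 counts. The 14 hepatocyte markers summed to 1651550 and 1653579 counts for the fasted and 1835647 and 1826594 for the non-fasted group, that is 12.2% of fasted counts in each library against 4.96% and 4.94% of non-fasted counts. Median-of-ratios size factors were used for scaling, and calls were made at an adjusted p of 0.05 in the quasi-likelihood framework of edgeR. On that scale all 14 hepatocyte markers were higher in fasted libraries, with a median log2 fold change of 1.77. Log2 fold changes of the members are therefore also given after scaling to these 14 markers, except for genes at 0 or 1 count in a group, which lowers the median of all genes by 1.77 (a shift of -1.77 on the log2 scale) and under which the markers themselves spread from -0.16 to 0.50. In such bulk RNA, fewer cells of a type and less RNA per cell cannot be told apart. Both non-fasted libraries carry the placental markers, so no comparison without such libraries can be made.

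Every liver-enriched transporter was higher in the fasted libraries, while the other transporters were split between higher and lower. Of the 64 members, 42 passed the filter on low counts, 7 had no count in any library, and the rest had too few counts. Among the 42 tested, 25 were higher, 15 were lower and 2 did not pass the test. Over all 15470 genes tested, 37.3% were called higher and 45.3% lower. The 13 liver-enriched members were all called higher, with a median log2 fold change of 2.07 against -0.13 over all genes tested. Of the 29 other members tested, 12 were higher and 15 lower. Under marker scaling 12 members were higher, 27 were lower and 3 did not pass, beside 4.72% higher and 90.3% lower over all genes, and the liver-enriched members split into 9 higher and 4 lower.

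The order of levels was read from normalized counts per kb of exon, averaged over the 2 libraries of a group. Among the members described here, the uptake transporter Slco1b2 stood first in fasted libraries at 13162 ± 53.1 per kb (SD, n = 2), and the bile salt export pump Abcb11 was at 3359 ± 13.1. Slco1a1 came next at 3014 ± 55.1, then Abcc3 at 2426.5 ± 23.8, Abcb4 at 2322 ± 5.03 and Abcc2 at 1417 ± 20.3. Farther down, Abcb6 at 833 ± 11.8 and Abcg8 at 818 ± 8.13 differed by less than the sum of their SDs. In non-fasted libraries Slco1b2 was again first, at 3175 ± 46.3 per kb, but the prostaglandin transporter Slco2a1 stood next at 1523 ± 1.73. Abcb11 was at 1434 ± 8 there.

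**Figure D1:**
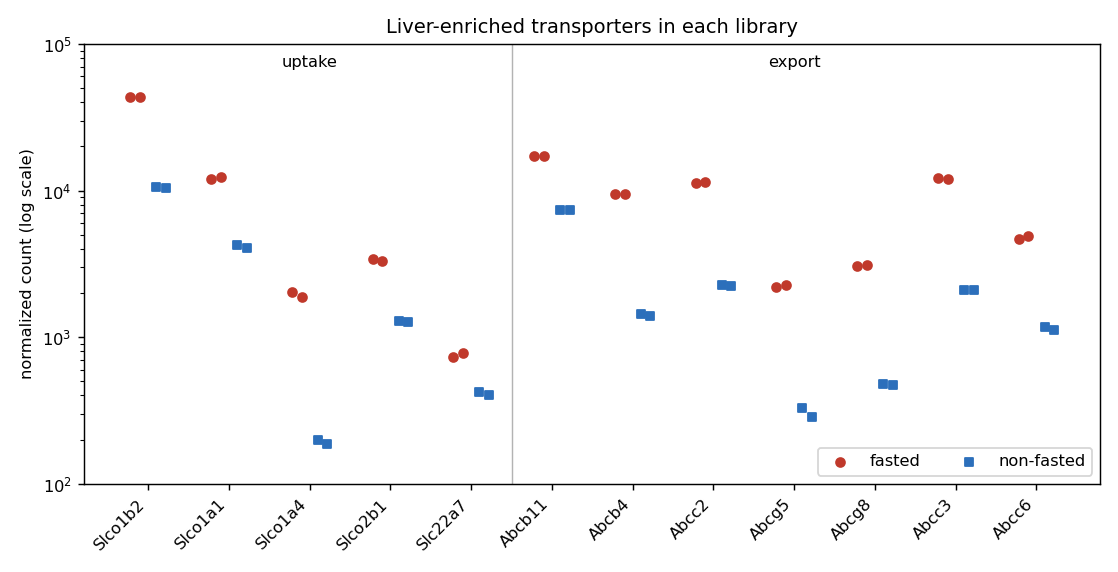
Normalized count (log axis) of 12 liver-enriched transporters, uptake on the left and export on the right, with a red circle for each fasted and a blue square for each non-fasted library. Among these 12 genes the gap is widest for Slco1a4, at 2023 and 1883 in fasted against 199.6 and 185.5 in non-fasted libraries.

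Among the uptake genes of hepatocytes, Slco1b2 and its chromosomal neighbours Slco1a1 and Slco1a4 were all higher in fasted libraries, yet to unequal extents. Slco1b2 (Entrez gene 28253), the main organic anion uptake protein of mouse hepatocytes, which carries bile acids, conjugated bilirubin and statins, had 43652 and 43404 normalized counts in fasted against 10607 and 10390 in non-fasted libraries. Its log2 fold change was 2.05 (standard error 0.014, adjusted p = 9.04e-16), and with the hepatocyte markers set equal it was 0.28, inside the range of the markers. Slco1a4 (Entrez gene 28250), which carries organic anions in hepatocytes and at the blood-brain barrier, had 2023 and 1883 normalized counts in fasted libraries and 199.6 and 185.5 in non-fasted libraries. This was the largest rise among the members, 3.34 (standard error 0.060, adjusted p = 2.02e-12), and at 1.57 (adjusted p = 1.13e-18) it also lay above every hepatocyte marker once these were set equal. Slco1a1 (Entrez gene 28248), an organic anion transporter of male mouse liver and kidney, had 12066 and 12382 normalized counts in fasted and 4237 and 4049 in non-fasted libraries. It rose by 1.56 (standard error 0.024), less than the markers, and stood at -0.21 under marker scaling. The ratio of Slco1a4 to Slco1a1 counts, which no scaling touches, was 0.168 and 0.152 in fasted against 0.0471 and 0.0458 in non-fasted libraries. Few of the words of 50 bases in the transcripts of Slco1a1 (2.15%) and Slco1a4 (2.73%) also stood in another gene's transcript.

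The sequence before the start of Slco1b2 is shown because it was the most abundant member in both groups. It is the 250 bases upstream of the RefSeq start on the plus strand (chr6:141629268-141629517, GRCm38.p6), written 5′ to 3′. Capitals mark matches to motifs searched on both strands.
Slco1b2: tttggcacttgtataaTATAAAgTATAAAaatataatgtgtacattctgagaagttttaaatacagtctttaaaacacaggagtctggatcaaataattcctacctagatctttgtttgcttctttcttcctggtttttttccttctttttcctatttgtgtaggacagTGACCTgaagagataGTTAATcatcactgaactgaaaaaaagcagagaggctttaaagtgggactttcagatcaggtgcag
They are TATAAA, the TATA box word, AGGTCA, the core of many nuclear receptor sites, read here from the other strand, and GTTAAT, the first part of the HNF1 site. Of the 32851 promoter windows of 300 bases in the table, 13.6% held TATAAA, 16.3% AGGTCA and 7.1% GTTAAT. Windows were found for 51 of the 64 members, 61 windows in all, of which 21.3%, 19.7% and 6.56% held these words.

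Slco2b1 and Slc22a7, also hepatocyte uptake genes, rose less than the hepatocyte markers. Slco2b1 (Entrez gene 101488), an organic anion transporter of liver and several other tissues, had 3399 and 3295 normalized counts in fasted libraries against 1285.0 and 1263 in non-fasted libraries. It rose by 1.39 (standard error 0.031, adjusted p = 1.24e-11) and was at -0.38 by hepatocyte markers. Slc22a7 (Entrez gene 108114), an organic anion transporter of the sinusoidal membrane, had 726.8 and 784.8 normalized counts in fasted and 423.6 and 403.6 in non-fasted libraries. Its rise of 0.87 (standard error 0.064, adjusted p = 3.59e-07) was the smallest among the liver-enriched members, and under marker scaling it was the lowest of them, at -0.90 (adjusted p = 3.86e-13).

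The sterol and phospholipid pumps of the bile canaliculus showed the largest rises among the exporters. Abcb4 (Entrez gene 18670), which flips phosphatidylcholine into bile, had 9486 and 9457 normalized counts in fasted against 1446 and 1397 in non-fasted libraries. It rose by 2.74 (standard error 0.024, adjusted p = 5.37e-15) and stayed higher at 0.97 (adjusted p = 1.13e-22) with the hepatocyte markers set equal. Abcg5 (Entrez gene 27409) and Abcg8 (Entrez gene 67470) encode the partners of the dimer that secretes cholesterol and plant sterols. Abcg5 had 2202 and 2250.0 normalized counts in fasted and 327.1 and 286.2 in non-fasted libraries, and Abcg8 had 3045 and 3088 in fasted and 476.4 and 473.7 in non-fasted libraries. They rose by 2.86 and 2.69 (standard errors 0.058 and 0.037, adjusted p = 5.28e-12 and 1.86e-13), and by 1.09 and 0.92 under marker scaling. Abcg8 counts per Abcg5 count were 1.38 and 1.37 in fasted against 1.46 and 1.66 in non-fasted libraries, a narrow span beside the changes of each gene.

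Abcg5 and Abcg8 lie head to head. Of the 2 RefSeq starts listed for Abcg8, the start used here lies 110 bases from the Abcg5 start. The 109 bases between this start and that of Abcg5 (chr17:84683012-84683120, GRCm38.p6, plus strand, the direction of Abcg8) are shown. This stretch was chosen because it lies upstream of both genes.
Abcg8: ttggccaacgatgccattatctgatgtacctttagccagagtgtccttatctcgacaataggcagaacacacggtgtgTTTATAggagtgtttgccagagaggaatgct
The capitals mark TATAAA on the strand of Abcg5, and no other motif searched matched there. The words searched besides those above were GGGCGG, TGACNNNGC and CACGTG, held by 35.7%, 12.4% and 7.15% of all windows.

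The bile salt export pump gene was higher on the main scale but lower under marker scaling, where 90.3% of all genes were lower. Abcb11 (Entrez gene 27413), the bile salt export pump, had 17240 and 17335 normalized counts in fasted against 7407 and 7349 in non-fasted libraries. It rose by 1.23 (standard error 0.015, adjusted p = 6.91e-14) on the main scale and was at -0.54 (adjusted p = 3.26e-21) by hepatocyte markers, below all of them. Abcb4 counts per Abcb11 count were 0.550 and 0.546 in fasted against 0.195 and 0.190 in non-fasted libraries, a difference far beyond the spread within a group. Within the counts of the Abcb family, Abcb11 took 52.5% and 52.8% in fasted libraries (Wilson 95% intervals 51.8 to 53.3% and 52.1 to 53.6%) and 66.1% and 66.8% in non-fasted libraries (65.5 to 66.7% and 66.1 to 67.4%), and Abcb4 took 28.9% and 28.8% against 12.9% and 12.7%. These intervals cover counting error only.

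The upstream sequences of both pumps are shown side by side, since their counts moved apart within the same libraries. Abcb4 is on the plus strand (chr5:8893471-8893720) and Abcb11 on the minus strand (chr2:69342617-69342866), both in GRCm38.p6, each with 250 bases written 5′ to 3′ toward its start.
Abcb4: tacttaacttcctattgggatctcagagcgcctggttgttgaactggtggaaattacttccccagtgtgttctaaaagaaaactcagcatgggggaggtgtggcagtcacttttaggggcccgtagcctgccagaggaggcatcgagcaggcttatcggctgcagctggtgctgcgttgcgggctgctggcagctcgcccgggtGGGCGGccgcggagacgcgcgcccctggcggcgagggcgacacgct
Abcb11: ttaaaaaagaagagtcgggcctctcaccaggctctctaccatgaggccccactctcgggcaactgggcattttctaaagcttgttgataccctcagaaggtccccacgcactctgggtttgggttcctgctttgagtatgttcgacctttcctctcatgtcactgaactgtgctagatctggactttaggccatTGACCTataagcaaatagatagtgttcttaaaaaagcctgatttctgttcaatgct
Capitals mark GGGCGG, the GC box word, in Abcb4, and AGGTCA, read from the other strand, in Abcb11. Among the 9 liver-enriched members with a window, GGGCGG was matched in Abcb4 and in no other, and AGGTCA in Abcb11, Abcc2, Slco1a1 and Slco1b2. These matches are a description of the letters only.

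Abcc2, Abcc3 and Abcc6 were higher in fasted libraries as well. Abcc2 (Entrez gene 12780), which secretes conjugated bilirubin and glutathione into bile, had 11258 and 11488 normalized counts in fasted against 2259 and 2225 in non-fasted libraries. Abcc3 (Entrez gene 76408), which returns glucuronides to blood across the basolateral membrane, had 12229 and 12060 in fasted and 2083 and 2091.5 in non-fasted libraries. The rises were 2.34 for Abcc2 and 2.54 for Abcc3 (standard errors 0.021 and 0.019, adjusted p = 6.34e-15 and 2.19e-15), and 0.57 and 0.77 with the hepatocyte markers set equal, above all of these. Abcc6 (Entrez gene 27421), whose loss in humans causes pseudoxanthoma elasticum, had 4707 and 4904 normalized counts in fasted libraries and 1175 and 1121 in non-fasted libraries. It rose by 2.07 (standard error 0.034, adjusted p = 8.60e-13) and was at 0.29, within the range of the markers. Over the 13 liver-enriched members, 6 lay above the marker range, 3 within it and 4 below it, whereas of all 15470 genes 385 lay above, 961 within and 14124 below.

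The 250 bases upstream of Abcc2 on the plus strand (chr19:43782058-43782307, GRCm38.p6) are shown because this was the only liver-enriched window with a match to TGACNNNGC, the core of the antioxidant response element.
Abcc2: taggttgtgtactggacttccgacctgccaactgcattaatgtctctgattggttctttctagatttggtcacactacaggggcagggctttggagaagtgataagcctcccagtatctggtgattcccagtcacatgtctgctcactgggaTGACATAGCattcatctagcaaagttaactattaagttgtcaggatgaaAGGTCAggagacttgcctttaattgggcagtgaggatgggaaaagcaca
The capitals mark that match and, nearer the start, AGGTCA.

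**Figure D2:**
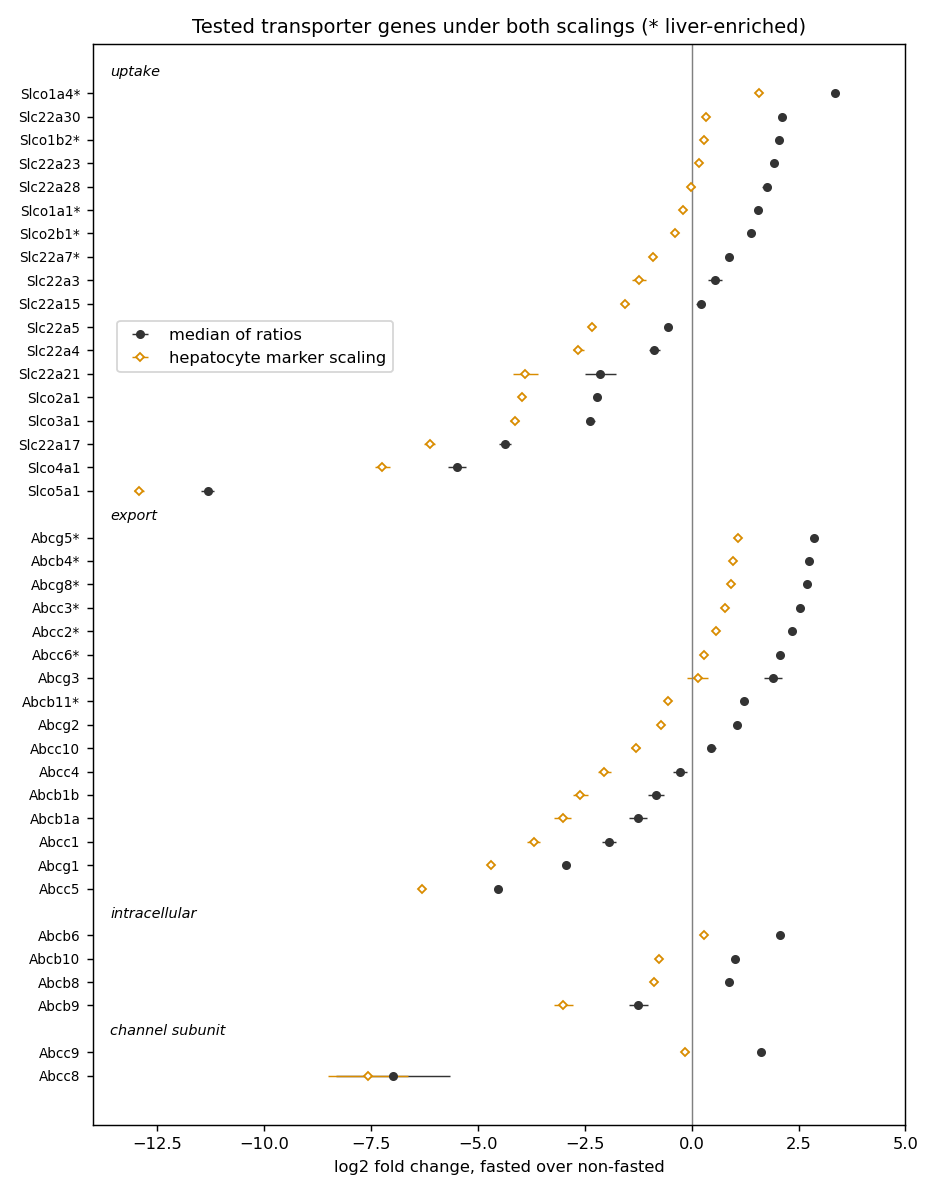
Log2 fold changes (fasted over non-fasted) for 40 tested transporters by class, after median-of-ratios scaling (black circles) and after scaling to 14 hepatocyte markers (open orange diamonds). Bars are standard errors and asterisks mark liver-enriched genes. All 12 of these lie above 0 in black, and 4 of them lie below 0 as diamonds. The fitted values of Slco5a1 and Abcc8 rest on 1 and 0 fasted counts.

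Several uptake genes outside the liver-enriched list were low in the fasted libraries and far lower there than in the non-fasted ones. Slco5a1 (Entrez gene 240726), an orphan of the Slco family, had 1 and 0 raw counts in fasted libraries against 5383 and 5465 in non-fasted libraries. The ratio of non-fasted to fasted normalized counts was 2800.4 (exact 95% interval 502.5 to 110619.5, counting error only). Slco4a1 (Entrez gene 108115), which carries thyroid hormones and prostaglandins, had 9.82 and 5.92 normalized counts in fasted and 363 and 351 in non-fasted libraries, at -5.49 (standard error 0.21, adjusted p = 1.30e-09). Slc22a17 (Entrez gene 59049), a receptor for the siderophore carrier lipocalin, had 21.6 and 25.6 in fasted against 488 and 485 in non-fasted libraries and was at -4.36 (standard error 0.14). Slco3a1, a broadly expressed organic anion transporter, had 90.4 and 94.7 normalized counts in fasted libraries and 486 and 472 in non-fasted libraries, at -2.37 (adjusted p = 4.35e-09). By hepatocyte markers Slco4a1 was at -7.23, Slc22a17 at -6.12 and Slco3a1 at -4.14. The trophoblast markers moved the same way as these genes, at 6 and 7 counts in fasted and 6.58% and 6.63% of counts in non-fasted libraries. So did all 4 cholangiocyte markers, 3 of 4 decidual, 4 of 5 endothelial and 2 of 4 stellate cell markers. The rest of these were higher, as were all 4 macrophage markers. The part of any of these cell types in the falls was not tested.

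Slco2a1 and the carnitine transporters, most of them described here after their values were seen, were also lower in fasted libraries. Slco2a1 (Entrez gene 24059), which clears prostaglandins and is known from endothelium, had 2342 and 2372 normalized counts in fasted against 10839 and 10856 in non-fasted libraries, at -2.20 (standard error 0.021, adjusted p = 1.34e-14). It took 3.68% and 3.74% of the Slco counts in fasted and 35.2% and 35.8% in non-fasted libraries. Slco1b2 took 68.7% and 68.4% of them in fasted against 34.5% and 34.2% in non-fasted libraries. Of the 5 endothelial markers, 4 were lower in fasted libraries, Cdh5 at -3.54, Pecam1 at -1.95, Lyve1 at -0.69 and Kdr at -0.45, and Stab2 was higher at 1.53 but at -0.24 by hepatocyte markers. Their part in the level of Slco2a1 was not tested. Slc22a5 (Entrez gene 20520), the main carnitine importer, had 1440 and 1491 normalized counts in fasted and 2144 and 2142 in non-fasted libraries, at -0.55 (standard error 0.034, adjusted p = 8.15e-08). Slc22a4, which carries ergothioneine, was at -0.88 and Slc22a21, a related carnitine transporter of the mouse, at -2.13. By hepatocyte markers Slco2a1 was at -3.97, Slc22a5 at -2.32, Slc22a4 at -2.65 and Slc22a21 at -3.89. Slc22a21 had 13.8 and 11.8 normalized counts in fasted against 47.7 and 65.1 in non-fasted libraries, and its call was lost without fasted replicate 1 (adjusted p = 0.0534). Of the words of 50 bases in Slc22a21 and Slc22a5 transcripts, 24.2% and 27.1% also stood in another gene, among them each other, so reads may have been split between them.

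**Figure D3:**
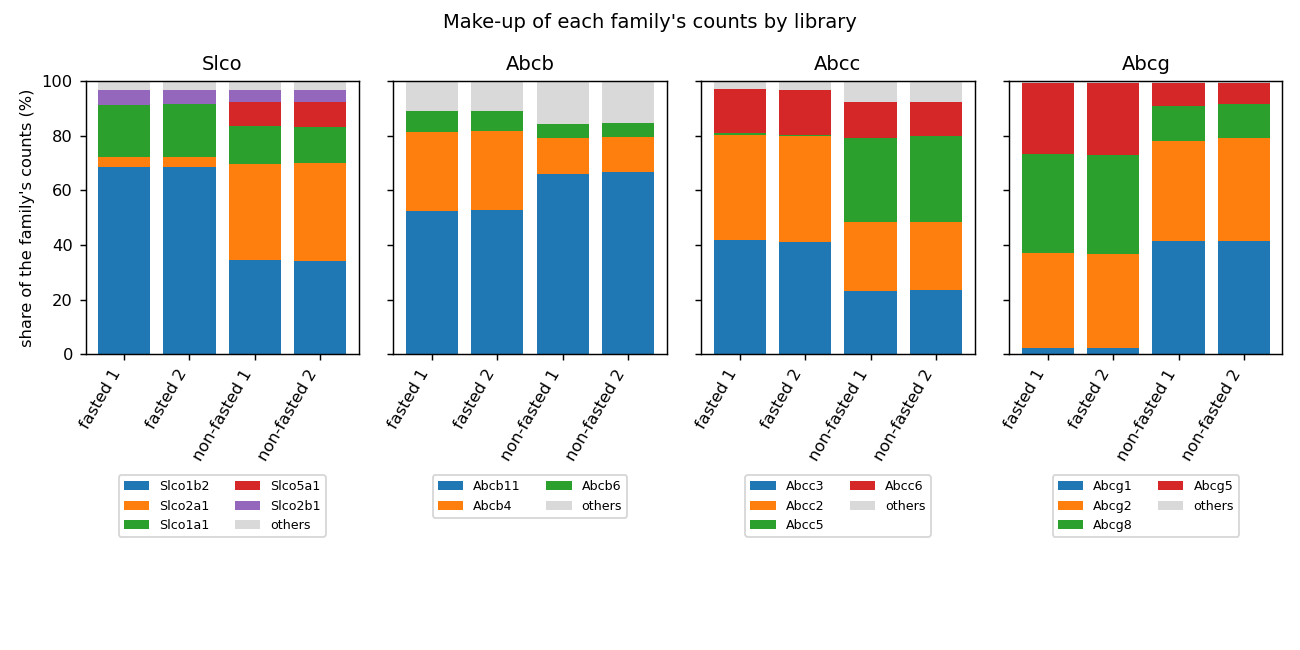
Share (%) of each family's raw counts taken by its members in each library, for the Slco, Abcb, Abcc and Abcg families, with members under 5% in every library and any not shown singly pooled as others. Slco2a1 and Slco5a1 in Slco, Abcc5 in Abcc and Abcg1 in Abcg take smaller shares in fasted than in non-fasted libraries, at 0.424% and 0.394% for Abcc5 in fasted against 30.9% and 31.4% in non-fasted libraries.

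The remaining tested Slc22a genes were higher in fasted libraries or did not pass the test. Slc22a30 (Entrez gene 319800), an organic anion transporter relative of rodents, had 3723 and 4068 normalized counts in fasted and 894.4 and 906.2 in non-fasted libraries, a rise of 2.11 (standard error 0.042, adjusted p = 4.93e-12), at 0.34 by hepatocyte markers. Its neighbour Slc22a28 rose by 1.75 and was at -0.02 (adjusted p = 0.879) by hepatocyte markers. The 2 genes share many words of 50 bases with their relatives, 34.2% and 53.9% of their own, so their separate values are uncertain. Slc22a23 (Entrez gene 73102), an orphan transporter, had 2548 and 2601 normalized counts in fasted and 661.8 and 684.1 in non-fasted libraries and rose by 1.94, at 0.16 by markers. Slc22a3, which carries monoamines and whose mouse gene is imprinted in placenta, had 88.4 and 82.8 normalized counts in fasted against 59.4 and 57.9 in non-fasted libraries. Its call at 0.54 (adjusted p = 0.0101) was lost with total counts, with DESeq2 and without fasted replicate 1, and it was called lower, at -1.22, by hepatocyte markers. Slc22a15 did not pass the test at 0.21 (adjusted p = 0.093), but was called higher with upper quartile scaling and without fasted replicate 1, and lower with total counts and, at -1.56 (adjusted p = 4.96e-14), by hepatocyte markers.

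Of the 9 tested exporters outside the liver-enriched list, 5 were lower in fasted libraries, 3 were higher and 1 did not pass, near the shares over all genes (45.3% lower and 37.3% higher). Abcc5 (Entrez gene 27416), a pump for cyclic nucleotides, had 123.8 and 116.3 normalized counts in fasted against 2773 and 2805 in non-fasted libraries, at -4.54 (standard error 0.061, adjusted p = 1.66e-13). Abcg1 (Entrez gene 11307), which passes cholesterol to lipoproteins and is known from macrophages, had 200.4 and 207.1 in fasted libraries and 1562 and 1546 in non-fasted libraries, at -2.93 (standard error 0.062, adjusted p = 7.33e-12). The 4 macrophage markers, which include the Kupffer cell genes Clec4f and Vsig4, were all called higher in fasted libraries, at 1.92 to 2.37. By hepatocyte markers 3 of them were also higher. The part of macrophages in the level of Abcg1 was not tested. The multidrug pumps Abcb1a and Abcb1b, both forms of P-glycoprotein, were low throughout. Abcb1a had 33.4 and 31.6 normalized counts in fasted against 80.8 and 73.7 in non-fasted libraries (-1.25, adjusted p = 2.80e-04), and Abcb1b was at -0.84 (adjusted p = 0.00148). They share 17.0% and 18.3% of their words of 50 bases with each other or Abcb4, so their separate values are uncertain. Abcc1, which exports leukotriene and glutathione conjugates, was at -1.93, and Abcc4, another cyclic nucleotide pump, did not pass the test at -0.27 (adjusted p = 0.152), but was called lower with total counts and, at -2.04 (adjusted p = 3.90e-12), by hepatocyte markers. By these markers Abcc5 was at -6.31, Abcg1 at -4.70, Abcb1a at -3.01, Abcb1b at -2.60 and Abcc1 at -3.70. The trophoblast markers were lower alongside the 5 exporters called lower, as were the cholangiocyte and most decidual and endothelial markers. The part of any of these cell types in the falls was not tested.

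The 3 other exporters outside that list that were called higher were Abcg2, Abcg3 and Abcc10. Abcg2 (Entrez gene 26357), the breast cancer resistance protein, which exports urate and sulphated drugs at the bile canaliculus and in trophoblast, had 2917 and 2915 normalized counts in fasted and 1396 and 1410 in non-fasted libraries. It rose by 1.06 (standard error 0.030, adjusted p = 9.17e-11) and was at -0.72 (adjusted p = 2.97e-17) by hepatocyte markers. Its share of Abcg counts was 34.6% and 34.2% in fasted against 36.9% and 37.7% in non-fasted libraries, whereas that of Abcg1 was 2.38% and 2.43% against 41.3% and 41.3%. Abcg3, a rodent gene, had 33 raw counts in each fasted and 34 in each non-fasted library, at 1.90 on the main scale and 0.14 (adjusted p = 0.584) by markers. Abcc10, a pump for lipophilic drugs, was at 0.46 (adjusted p = 0.00304), a call lost with total counts and without fasted replicate 2, and at -1.31 by markers.

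Members that work inside the cell moved both ways. Abcb6 (Entrez gene 74104), a porphyrin transporter, had 2495 and 2445 normalized counts in fasted and 603.4 and 577.4 in non-fasted libraries, at 2.06 (standard error 0.040, adjusted p = 3.84e-12) and 0.29 by markers. Most of its transcript, 90.3% of its words of 50 bases, also stood in the annotated transcript Gm29253, so its count is uncertain. The mitochondrial transporters Abcb10 and Abcb8 rose by 1.01 and 0.88, against -0.76 and -0.89 under marker scaling, and the lysosomal peptide transporter Abcb9 was at -1.24 and -3.01. Among the channel subunits, Abcc9 rose by 1.62 and was at -0.15 (adjusted p = 0.107) by markers. Abcc8 was without a count in fasted libraries and had 29 and 21 raw counts in non-fasted ones, at least 4.30-fold lower in fasted libraries with a floor of 3 counts over the group.

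**Figure D4:**
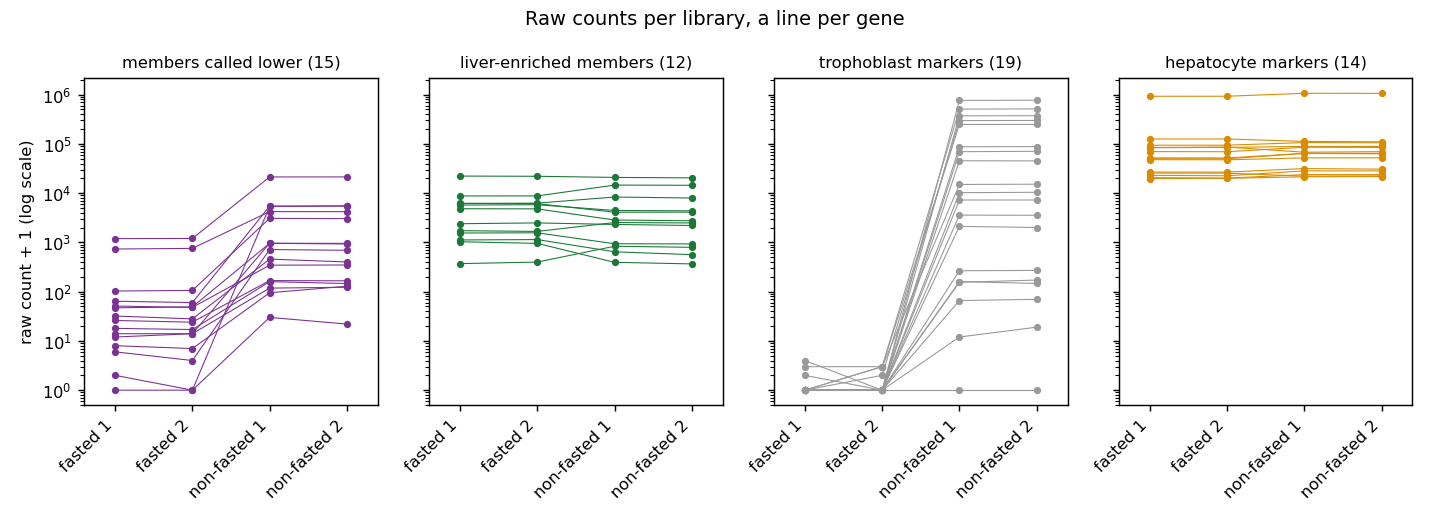
Raw counts plus 1 (log axis) in each library, a line per gene, for the 15 members called lower, 12 liver-enriched members, 19 trophoblast markers and 14 hepatocyte markers. Raw counts are not scaled for depth, which was 13541405 and 13528015 in fasted against 36975921 and 36943535 in non-fasted libraries. The members called lower, chosen by that call, and the trophoblast markers are higher in both non-fasted libraries (1 trophoblast marker has no count). The hepatocyte lines run close to level in raw counts, and the liver-enriched lines move both ways. Slco1a4 had 1030 and 955 raw counts in fasted against 393 and 365 in non-fasted libraries, and Slc22a7 had 370 and 398 against 834 and 794.

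The members left untested had few counts. Slc22a6, Slc22a12, Slc22a16, Slc22a19, Slc22a20, Slco6c1 and Slco6d1 had no count. The renal anion transporter Slc22a8 and the renal cation transporter Slc22a2 had none in fasted and 1 in each non-fasted library. The 4 kidney markers summed to 9 and 14 raw counts in fasted against 100 and 111 in non-fasted libraries. They did not move as 1 set. Kap had 0 in both fasted and 39 and 54 in non-fasted libraries, while Lrp2 did not pass the test at -0.29 (adjusted p = 0.414). Slc34a1 and Umod had too few counts to test. Slco1a6 had 0 counts in fasted and 16 and 13 in non-fasted libraries, at least 2.495-fold lower in fasted, and Abcg4, a sterol transporter of brain, had 0 against 7 and 12, at least 1.64-fold lower. Abcc12 had 2 and 6 counts in fasted against 10 and 12 in non-fasted libraries. Abcb5, Slc22a13, Slc22a14, Slc22a22, Slc22a26, Slc22a27, Slc22a29, Slco1a5, Slco1c1 and Slco4c1 had at most 6 counts in any library.

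Of 12 other genes of bile acid and drug transport, 9 were tested, of which 6 were higher, 2 lower and 1 not past the test, beside 37.3% higher and 45.3% lower over all genes. By hepatocyte markers 1 was higher and 8 were lower, where 90.3% of all genes were lower. Slc10a1, the sodium-dependent bile acid importer of hepatocytes, had 6688 and 6686 raw counts in fasted and 8517 and 8506 in non-fasted libraries. It rose by 1.61 on the log2 scale (standard error 0.016, adjusted p = 1.95e-14) and was at -0.17 by markers, near Slco1a1. Abca1, which exports cholesterol to apolipoprotein A-I, rose by 1.14 and Rdx, the radixin that anchors Abcc2 at the canaliculus, by 1.03, and they were at -0.63 and -0.74 by markers. The exporter of organic cations Slc47a1 was the gene that stayed higher, at 2.29 and 0.52. Slc29a1, a nucleoside transporter, and Atp8b1, a canalicular phospholipid flippase, were lower at -0.23 and -1.53, and at -2.00 and -3.30 by markers.

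Of 12 regulators of transporter genes, all were tested, 11 were higher, none was lower and 1 did not pass, beside 37.3% higher and 45.3% lower over all genes. By markers 6 were higher, 4 lower and 2 not past the test, beside 4.72% higher and 90.3% lower over all genes. Nr1i3, the constitutive androstane receptor, had 2793 and 2625 raw counts in fasted against 638 and 684 in non-fasted libraries, at 3.99 (standard error 0.044, adjusted p = 3.54e-14) and 2.22 by markers. Ppara, the fatty acid receptor of the fasting response, was at 2.87 and 1.09. Hnf4a, a hepatocyte identity factor, was at 2.06 and 0.29. Nr1h4, the bile acid receptor that drives Abcb11, was at 2.43 and 0.66, and its target Nr0b2 at 1.27 and -0.50. Nfe2l2 and Nr1h2 were also lower by markers, at -1.15 and -1.72. The part of these regulators in the levels of the transporter genes was not tested.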

How the data were processed

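Liver RNA was counted by the authors per gene in 4 libraries, and the deposited counts are raw, without normalization. Tools listed in the submitters' processing notes are STAR, Trimmomatic, featureCounts, FastQC, MultiQC and DESeq2 1.32.0, with the build GRCm39. Other versions, strandedness and how multi-mapping reads were handled were not given in the sources used here. Of 27179 Entrez identifiers, 1904 had no name in the RefSeq table (GRCm38.p6), which served for names. Promoter windows came from RefSeq on that build and exon lengths from the GENCODE M21 basic set.

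Genes were filtered with filterByExpr, scaled with median-of-ratios size factors and tested by the quasi-likelihood test of edgeR 4.0.16 in R 4.3.3, two-sided, with Benjamini-Hochberg adjustment over all 15470 genes. Trended dispersions were kept at 1e-04 or above, where edgeR's deviance is exact. Standard errors came from fold change and F. Normalized counts are counts divided by size factors. Libraries of a group differed slightly beyond counting error, and 2 were kept per group. The mean squared deviation per gene was 1.11 for fasted and 1.13 for non-fasted pairs, where 1 is counting error alone. This does not show whether the libraries came from separate mice. Intervals of shares are Wilson intervals.

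Values were given for every liver-enriched member, the most abundant member of each family, up to 4 members per family with the largest change among those called with 100 or more counts, and the 3 most abundant genes of the other lists. Other genes were named after their values were seen. Some members that this rule covers are counted but not reported singly here. Members and lists were chosen with earlier results of these data known. Alternatives were TMM, upper quartile and total count scaling, hepatocyte marker scaling, other filters, DESeq2 1.42.0, limma-voom (limma 3.58.1), edgeR's own dispersion, a replicate block, thinning and leaving out each library. The test was also run on simulated counts in which few genes changed. That setting does not cover a shift of most genes, as in these data.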

Additional observations from a re-analysis of the deposited data

How the results depend on the processing

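Scaling to the hepatocyte markers changed the most. It moved the members called higher to 12 and lower to 27, from 25 and 15, and the liver-enriched members called lower to 4, from 0 (edgeR). It turned the direction of 10 called members. Among them were Abcb11 at -0.54, Abcg2 at -0.72, Slc22a7 at -0.90, Slco1a1 at -0.21 and Slco2b1 at -0.38 on the log2 scale. Abcb10 at -0.76, Abcb8 at -0.89, Abcc10 at -1.31 and Slc22a3 at -1.22 turned as well. Without each library in turn, 24 to 25 members were higher and 14 to 16 lower, and the liver-enriched members stayed at 13 and 0. Total counts alone shifted the median of all genes by -0.50 and upper quartile scaling by 0.12. With total counts alone the split over all genes was 3562 higher and 9737 lower, against 5778 and 7003. With the replicate number as a block, 25 members were higher and 15 lower, and no call of a member changed. Deviations from the group means correlated at -0.017 between libraries of the same number. Since the spread within a group was close to counting error, this does not show whether the numbers pair the libraries.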
